A study of Arabidopsis thaliana with 8 samples.

Results

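Light-harvesting chlorophyll a/b-binding proteins are encoded by a nuclear gene family, and 10 of its members were followed through 6 deposited tables of Arabidopsis thaliana seedling RNA. They were picked by locus identifier out of 34133 entries in each table. The rule uses no measured value, but the genes were chosen with earlier results of these data known. The 10 are LHCB1.1 (AT1G29920), LHCB1.2 (AT1G29910), LHCB1.3 (AT1G29930), LHCB1.4 (AT2G34430), LHCB1.5 (AT2G34420), LHCB3 (AT5G54270), LHCB4.1 (AT5G01530), LHCB5 (AT4G10340), LHCB6 (AT1G15820) and LHCA1 (AT3G54890). The transcripts of all 10 were found in each of the 8 libraries, except that LHCB1.3 had no usable value in 1 of them.

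These proteins hold chlorophyll and carotenoids in the thylakoid membrane and pass the light energy they absorb to the photosystem reaction centres. LHCB1, LHCB2 and LHCB3 proteins form the trimers of the major antenna, LHCII, while LHCB4, LHCB5 and LHCB6 proteins (CP29, CP26 and CP24) are single-unit antennae between LHCII and the photosystem II core. LHCA1 belongs to the antenna belt of photosystem I. In green seedlings their transcripts are among the most abundant nuclear messages, and light and the circadian clock are known to regulate them.

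The samples were whole seedlings of the Col-0 background, 10 days old, raised on MS plates at 22 °C with 16 h of light and 8 h of dark. The mutants were mom1 (2 libraries), mom1pial2, pial2, nrpe1 and the library labelled pial1/2 (1 library each), and wild type (WT) had 2 libraries. MOM1 acts in the nucleus to keep genes and transposons silent, PIAL2 is a SUMO ligase-like protein that works with it, and NRPE1 is the catalytic subunit of the silencing enzyme RNA polymerase V. The labels name no mutant allele, no harvest time, no number of plants per library and no separate culture for the replicates. What the spreads between replicates measure is thus not known. The morning clock gene LHY stood at 1.97 FPKM in WT replicate 1 and 157 FPKM in WT replicate 2. In mom1 replicates 1 and 2 it stood at 3.09 and 130 FPKM. Each table sets 1 mutant against 1 WT library: mom1 replicate 2, pial2 and mom1pial2 against WT replicate 2, called the second set here, and mom1 replicate 1, the library labelled pial1/2 and nrpe1 against WT replicate 1, called the first set.

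The tables give FPKM, a level of fragments scaled to transcript length and library total. They hold no counts, and the depth is unknown. By the spacing of low values, 1 fragment of mom1 replicate 1 was worth 0.664 of a fragment of its WT library, and between 1 and 1.13 in the other 5 tables. MOM1 stood between 0.235 and 0.264 of the WT level in the 3 libraries that carry mom1, NRPE1 at 0.251 in nrpe1, and PIAL2 at 0.355 and 0.384 in pial2 and mom1pial2. PIAL1 (0.961) and PIAL2 (0.740) were not called lower by the authors in the library labelled pial1/2, so its label was not checked by these levels. The sets differed in the morning clock genes LHY and CCA1 (5.52 and 3.56, second set minus first on the log2 scale) and in PRR5 and PRR7, which act later in the day (-4.42 and -2.19). All 133 genes of the plastid genome were listed at 0 in the first set, while 76 to 78 were above 0 in the second and made up 4.15% to 5.34% of total FPKM. Of the marker genes of other tissues, 4 root genes summed to between 41.6 and 112 FPKM in the second set and between 48.8 and 56.2 FPKM in the first, and 4 seed genes to between 0.232 and 13.8 FPKM and between 0.158 and 0.321 FPKM. In WT replicate 2 both sums were the highest of the 8 libraries. The root genes THAS, THAH and THAD (AT5G48010, AT5G48000 and AT5G47990) have neighbouring locus identifiers, so they may not be separate markers. PRP3, the other root gene, stood at 22.3 to 37.1 FPKM in the second set and at 21.6 to 25.4 FPKM in the first.

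The LHCB1 genes are close copies in a pair of clusters, and the stretch of coding sequence in which they vary most is shown because it bounds how well short reads can tell them apart. LHCB1.1, LHCB1.2 and LHCB1.3 lie together on chromosome 1, at 10474656 to 10475969 on the minus strand, 10472280 to 10473502 on the minus strand and 10477885 to 10479114 on the plus strand (TAIR10.1). LHCB1.4 and LHCB1.5 are neighbours on chromosome 2, at 14524607 to 14525918 on the plus strand and 14522524 to 14523568 on the minus strand. Each has 1 exon. The 60-base stretches below run 5′ to 3′ on the coding strand, from RefSeq TAIR10.1, at chr1:10475626-10475685, chr1:10472980-10473039, chr1:10478278-10478337, chr2:14525022-14525081 and chr2:14523253-14523312 in the order of the names. Capitals mark bases that differ from LHCB1.1.
LHCB1.1: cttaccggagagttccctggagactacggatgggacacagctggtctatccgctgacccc
LHCB1.2: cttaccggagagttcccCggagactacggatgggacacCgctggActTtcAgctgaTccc
LHCB1.3: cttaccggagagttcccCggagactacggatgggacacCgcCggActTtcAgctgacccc
LHCB1.4: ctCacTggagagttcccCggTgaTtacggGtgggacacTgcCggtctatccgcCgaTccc
LHCB1.5: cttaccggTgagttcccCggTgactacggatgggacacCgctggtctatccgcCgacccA
LHCB1.4 differed from LHCB1.1 at 10 of the 60 bases, and each of the other copies at 6. Over the whole coding sequence, 140 of 804 aligned positions varied among the 5 genes. LHCB1.1 and LHCB1.3 were 96.14% identical (31 differences over 804 bases), LHCB1.2 and LHCB1.3 96.39%, LHCB1.1 and LHCB1.2 95.65%, and LHCB1.4 and LHCB1.5 92.45% (60 differences over 795 bases). Identity to LHCB3 was 63.05% to 68.12%, and to the remaining members 45.69% to 55.21%.

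**Figure D1:**
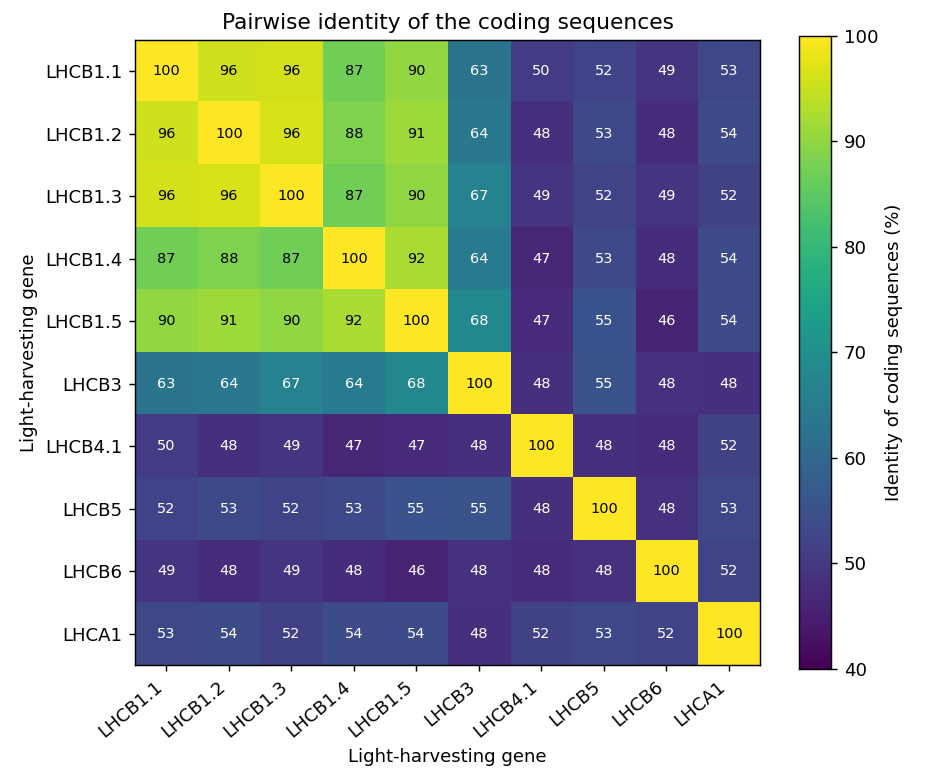
Identity of the coding sequences of each pair of the 10 light-harvesting genes, in percent of aligned bases (colour and number; both axes list the genes). The 3 LHCB1 genes of chromosome 1 form a block at 96%, LHCB1.4 and LHCB1.5 reach 92% with each other, and pairs with LHCB4.1, LHCB5, LHCB6 or LHCA1 lie at 46% to 55%.

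Reads of the LHCB1 genes may be shared between copies. Of all 50-base windows in their exons, 20.47% in LHCB1.1, 10.65% in LHCB1.2, 17.02% in LHCB1.3, 13.7% in LHCB1.4 and 17.27% in LHCB1.5 occur elsewhere in the genome, mostly within the cluster each belongs to. LHCB1.4 and LHCB1.5 share such windows with each other (13.62% and 17.27%), and LHCB1.1 and LHCB1.3 do (13.91% and 14.9%). The other 5 members had 0 shared windows. The read length is not given in the sources used here, so 50 bases is a yardstick. In the deposited tables LHCB1.5 shares its interval with the cell wall acetylation gene RWA3, LHCB3 with the myosin gene ATM2, and LHCB6 with AT1G15810. Their transcripts overlap at the ends, LHCB1.5 also lies over AT2G08665 and LHCB6 over AT1G05207 (both non-coding RNA genes), and LHCB1.3 meets NRPA2. Whether the counting used strand is not given in the sources used here, so reads of overlapping genes may not be told apart.

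The most abundant member was LHCB1.3, and 7 of the 10 genes stood lower in every library of the second set than in any of the first. Among all 20868 genes with at least 1 FPKM somewhere, 35.0% did so. LHCB1.1 alone stood higher in the second set without overlap (30.0% of all genes), and LHCB1.2 and LHCB6 overlapped. The median difference of the 10 genes, second set minus first on log2(FPKM + 1), was -0.70, beside -0.05 for all genes. The sets come from separately normalized tables and 4 genotypes exist in 1 set only, so these differences are described without a test. For the 4 genotypes of 1 set only, set and genotype cannot be told apart, and the part of the clock genes, which also differed between the sets, was not tested. In whole seedlings fewer green cells and less of this RNA per cell cannot be told apart.

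**Figure D2:**
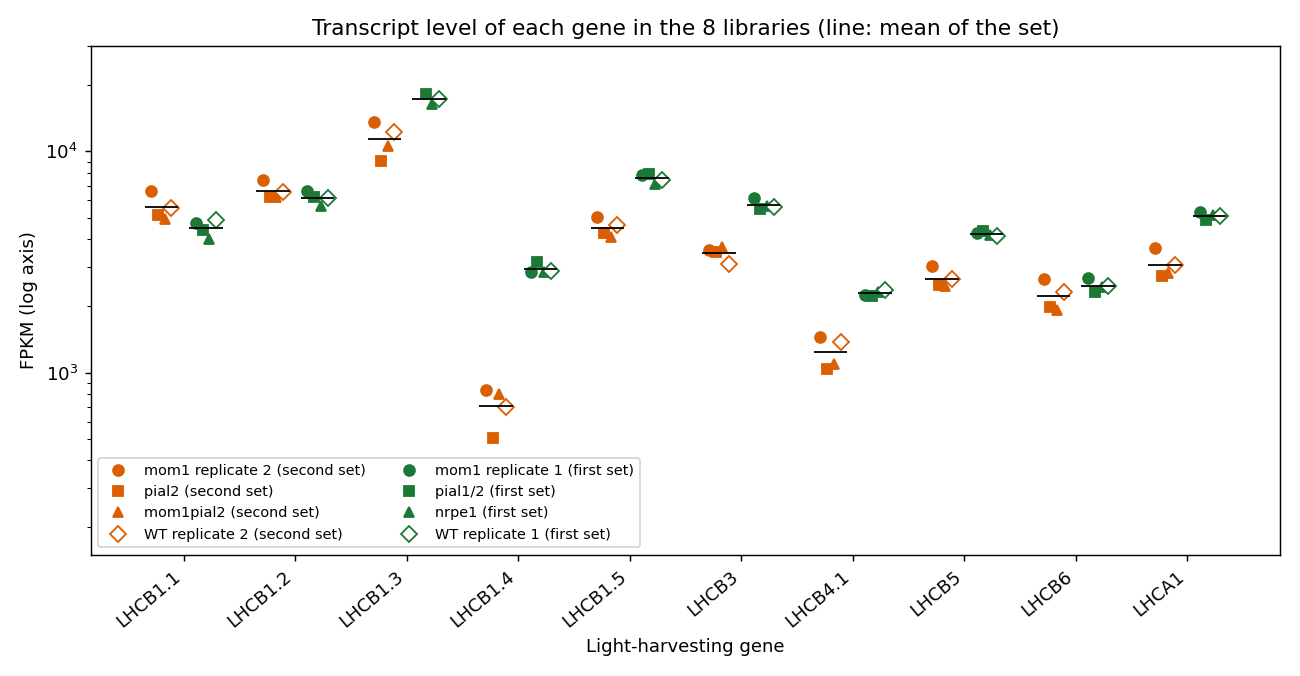
FPKM of the 10 light-harvesting genes in the 8 libraries (log axis; filled symbols are mutants and open diamonds WT; orange is the second set, green the first; lines are set means). Points of the 2 sets separate for every gene but LHCB1.2 and LHCB6, with the second set below except in LHCB1.1; LHCB1.4 lies between 503 and 838 FPKM in the second set and between 2849 and 3170 FPKM in the first.

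In the LHCII genes of chromosome 1 the sets differed in direction. LHCB1.1 had 6631 FPKM in mom1 replicate 2, 5175 in pial2, 4967 in mom1pial2 and 5565 in WT replicate 2, against 4738 in mom1 replicate 1, 4433 in the library labelled pial1/2, 4000 in nrpe1 and 4873 in WT replicate 1. Its lowest second-set library, mom1pial2, lay just above its highest first-set library, WT replicate 1, and the second set was at 1.23 times the first. LHCB1.2 had 7444, 6242, 6246 and 6553 FPKM in mom1 replicate 2, pial2, mom1pial2 and WT replicate 2, against 6589, 6207, 5639 and 6128 FPKM in mom1 replicate 1, the library labelled pial1/2, nrpe1 and WT replicate 1. These ranges overlapped, with a ratio of 1.08.

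LHCB1.3 had 13543 FPKM in mom1 replicate 2, 9028 in pial2, 10619 in mom1pial2 and 12204 in WT replicate 2, against 18231 in the library labelled pial1/2, 16325 in nrpe1 and 17295 in WT replicate 1. In mom1 replicate 1 the deposited table lists it at 0 with a status for too many fragments at the locus, and that mom1 value was left out. The WT value listed beside it (17325 FPKM) was kept in the mean of WT replicate 1. The highest second-set library stayed below the lowest first-set library, and the second set was at 0.650 times the first. Among all genes LHCB1.3 took places 4 to 7 in the second set, against places 1 and 2 in the first. These ranks include the plastid-genome genes, which were listed at 0 in the first set only and may take places in the second.

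LHCB1.4 showed the widest gap between the sets. It had 838, 503, 795 and 698 FPKM in mom1 replicate 2, pial2, mom1pial2 and WT replicate 2, against 2855, 3170, 2849 and 2883 FPKM in mom1 replicate 1, the library labelled pial1/2, nrpe1 and WT replicate 1. The second set stood at 0.237 times the first (-2.08 on the log2 scale), and no other member reached a 2-fold difference. At least 2-fold lower were 5.95% of all genes, and 7.32% were at least 2-fold higher, a class that held 0 of the 10. In rank among all genes LHCB1.4 took places 130 to 262 in the second set, against 24 to 30 in the first. Here too the plastid-genome genes could take places in the second set only.

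LHCB1.5, the neighbour of LHCB1.4, had 5077, 4288, 4114 and 4629 FPKM in mom1 replicate 2, pial2, mom1pial2 and WT replicate 2, against 7841, 7918, 7138 and 7418 FPKM in mom1 replicate 1, the library labelled pial1/2, nrpe1 and WT replicate 1. The sets did not overlap, and the second stood at 0.596 times the first. LHCB3, which joins LHCB1 and LHCB2 in some trimers, had 3589, 3497, 3680 and 3080 FPKM in mom1 replicate 2, pial2, mom1pial2 and WT replicate 2, against 6125, 5488, 5675 and 5610 FPKM in mom1 replicate 1, the library labelled pial1/2, nrpe1 and WT replicate 1. It stood at 0.604 times the first-set level, and WT replicate 2 was its lowest library of all.

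Summed over the 5 LHCB1 genes, FPKM came to 33533 in mom1 replicate 2, 25236 in pial2, 26741 in mom1pial2 and 29649 in WT replicate 2, against 39959 in the library labelled pial1/2, 35951 in nrpe1 and 38598 in WT replicate 1. All 4 second-set sums lay below the 3 first-set sums. LHCB1.4 gave 2.50%, 2.00%, 2.97% and 2.36% of this sum in mom1 replicate 2, pial2, mom1pial2 and WT replicate 2, against 7.93%, 7.92% and 7.47% in the library labelled pial1/2, nrpe1 and WT replicate 1. LHCB1.3 gave the largest part throughout, 35.8% to 41.2% in the second set and 44.8% to 45.6% in the first.

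The minor antenna genes were unlike one another. LHCB4.1 (CP29; chromosome 5, 208866 to 210548, 2 exons) had 1455, 1039, 1091 and 1380 FPKM in mom1 replicate 2, pial2, mom1pial2 and WT replicate 2, against 2251, 2217, 2311 and 2360 FPKM in mom1 replicate 1, the library labelled pial1/2, nrpe1 and WT replicate 1. It stood at 0.538 times the first-set level, the widest gap after LHCB1.4, and within the second set pial2 and mom1pial2 were the low pair. LHCB5 (CP26; chromosome 4, 6408007 to 6409849, 6 exons) had 3042, 2496, 2463 and 2641 FPKM in mom1 replicate 2, pial2, mom1pial2 and WT replicate 2, against 4266, 4374, 4198 and 4155 FPKM in mom1 replicate 1, the library labelled pial1/2, nrpe1 and WT replicate 1, at a ratio of 0.624.

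LHCB6 (CP24; chromosome 1, 5446462 to 5447880, 2 exons) had 2641, 1987, 1926 and 2311 FPKM in mom1 replicate 2, pial2, mom1pial2 and WT replicate 2, against 2669, 2313, 2431 and 2464 FPKM in mom1 replicate 1, the library labelled pial1/2, nrpe1 and WT replicate 1. Its ranges overlapped through mom1 replicate 2, the only second-set library above any of the first set, and the ratio was 0.892. On the log2 scale the set difference of LHCB6 was -0.17. LHCB4.2, a second gene for CP29 that is no member and was named after its values were seen, had 1722 FPKM in the second set and 1944 FPKM in the first, with overlapping ranges (-0.19, beside -0.89 in LHCB4.1).

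LHCA1, the photosystem I antenna gene (chromosome 3, 20339504 to 20341176, 4 exons), had 3639, 2719, 2834 and 3051 FPKM in mom1 replicate 2, pial2, mom1pial2 and WT replicate 2, against 5330, 4887, 5144 and 5080 FPKM in mom1 replicate 1, the library labelled pial1/2, nrpe1 and WT replicate 1. The sets did not overlap, and the ratio of 0.595 was close to those of LHCB1.5 and LHCB3.

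The order of levels per length changed with the set. The libraries of a set are of 4 genotypes, so the SDs given here are not those of replicates. In the second set LHCB1.3 led at 11349 ± 1955 FPKM (mean ± SD, n = 4), followed by LHCB1.2, LHCB1.1 and LHCB1.5, whose neighbouring ranges overlapped, then LHCB3, LHCA1, LHCB5 and LHCB6, again with overlaps between neighbours, then LHCB4.1 at 1241 ± 207 FPKM and LHCB1.4 at 709 ± 149 FPKM, both apart from their neighbours. In the first set LHCB1.3 led at 17284 ± 953 FPKM (n = 3), followed by LHCB1.5 at 7579 ± 367 FPKM, each clear of the next. LHCB1.2 and LHCB3 came next with overlapping ranges, then LHCA1 alone, then LHCB1.1 and LHCB5, which overlapped. LHCB1.4 followed at 2939 ± 154 FPKM, clear of LHCB6, whose range overlapped that of LHCB4.1, the lowest. Thus LHCB1.4 moved below LHCB6 and LHCB4.1 in the second set, and LHCB1.1 moved above LHCB1.5, LHCB3 and LHCA1.

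The 10 genes made up 4.53%, 3.50%, 3.68% and 4.09% of total FPKM in mom1 replicate 2, pial2, mom1pial2 and WT replicate 2, against 6.46%, 6.09% and 6.27% in the library labelled pial1/2, nrpe1 and WT replicate 1. The plastid-genome genes that are listed at 0 in the first set add to the total of the second, and their share was at most 5.34%. With each library centred on its median gene the set difference of the 10 was -0.64, and the part of the plastid genes in it was not tested further. Between the WT libraries alone the median difference was -0.67, and between the mom1 libraries alone -0.55. The count of 7 genes below without overlap became 8 without mom1 replicate 2 and stayed at 7 without any other single library. Leaving out a library can only keep or raise such a count, so this is no check of it.

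The comparison of mom1 with WT asks whether loss of the silencing factor alters these transcripts, and it is the only one with 2 libraries a group. All 9 genes with a value in both tables had a mean log2 ratio above 0, from 0.01 in LHCB4.1 to 0.18 in LHCB3, and none passed the test. Of the 9, 0 were called by limma on the paired within-table ratios at a Benjamini-Hochberg adjusted p under 0.05, where 0.0877% of 20536 genes were called, and 0 had an unadjusted p under 0.05, where 1253 genes did. The median over the 9 genes was 0.13, beside -0.000122 for all genes tested. It was 0.22 without replicate 1 and 0.07 without replicate 2, so the size of this log2 median depended on the replicate.

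LHCB3 averaged 0.18 ± 0.08 (SD, n = 2 tables), with a limma adjusted p of 0.814, the lowest of the 9 and shared with LHCB6. It was at 3589 FPKM in mom1 against 3043 FPKM in WT in the replicate 2 table and 6125 against 5620 FPKM in the replicate 1 table. LHCA1 averaged 0.17 ± 0.15, at 3639 FPKM in mom1 against 3013 in WT and at 5330 against 5089 FPKM. LHCB3, LHCA1, LHCB6, LHCB1.2, LHCB1.5 and LHCB5 were each higher in mom1 in both tables, and none passed limma. LHCB6 and LHCB1.2 averaged 0.16 ± 0.07 and 0.15 ± 0.07. LHCB1.4 (0.13 ± 0.21) and LHCB1.1 (0.11 ± 0.22) were below WT in the replicate 1 table (-0.02 and -0.04) and above it in the replicate 2 table (0.28 and 0.27). LHCB5 and LHCB1.5 averaged 0.13 ± 0.13 and 0.11 ± 0.05, and LHCB4.1 (0.01 ± 0.12, limma adjusted p = 0.988) was on either side of WT.

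In the mom1 replicate 2 table all 10 genes stood above WT, with log2 ratios of 0.09 in LHCB4.1 to 0.28 in LHCB1.4 and a median of 0.22. The authors' deposited table called 0 of them at a q-value under 0.05, where it called 2.34% of the genes it tested, and 0 had a p-value under 0.05. In the mom1 replicate 1 table the range was -0.07 in LHCB4.1 to 0.12 in LHCB3 over 9 genes. There the authors' deposited table called 0, beside 2.12% of genes tested, and 0 had a p-value under 0.05. Summed root markers stood at 41.6 FPKM in mom1 replicate 2 and 112 FPKM in WT replicate 2 but at 51.8 FPKM in mom1 replicate 1 and 52.8 FPKM in WT replicate 1. The seed markers stood at 0.496 FPKM in mom1 replicate 2, with 2 of 4 (SESA2 and SESA3) at 0, and at 13.8 FPKM in WT replicate 2. Whether these marker sums measure root and seed RNA was not tested, nor was their part in the higher ratios of the replicate 2 table.

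**Figure D3:**
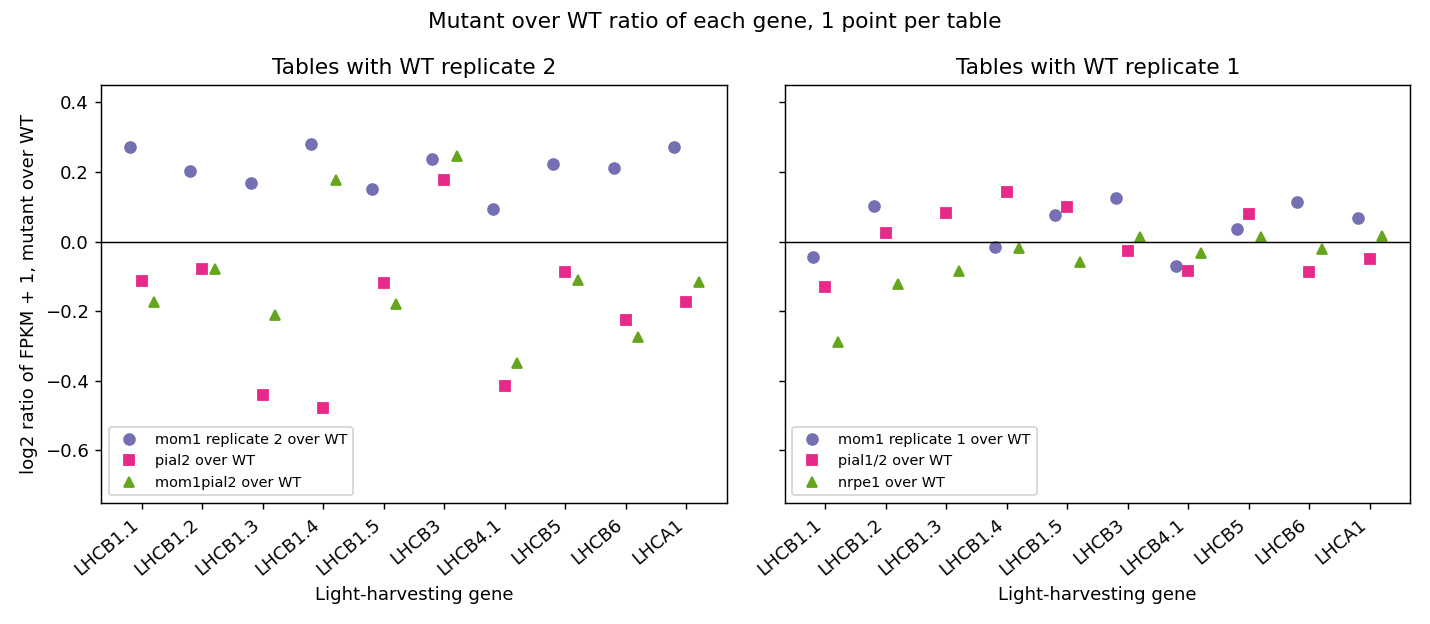
Log2 ratio of FPKM + 1, mutant over WT, for each light-harvesting gene in the 6 tables (left, the 3 tables that share WT replicate 2; right, the 3 that share WT replicate 1; the line at 0 is WT). In the left panel all mom1 points lie between 0.09 and 0.28, while pial2 and mom1pial2 points lie below 0 except LHCB3 in both and LHCB1.4 in mom1pial2; in the right panel all points lie between -0.29 and 0.14.

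In pial2, LHCB1.4, LHCB1.3 and LHCB4.1 were the genes farthest below WT, and the median over the 10 genes was -0.15, beside 0.01 for all genes. LHCB1.4 stood at 503 FPKM in pial2 against 702 FPKM in WT (log2 ratio -0.48), LHCB1.3 at 9028 against 12266 FPKM (-0.44) and LHCB4.1 at 1039 against 1387 FPKM (-0.42). None was called. The authors' deposited table called 0 of the 10, beside 2.44% of genes tested, and LHCB1.4 was the only member with a p-value under 0.05 (p = 0.00944, q = 0.188 in the authors' deposited table). LHCB6 (-0.23), LHCA1 (-0.17), LHCB1.5 (-0.12), LHCB1.1 (-0.11), LHCB5 (-0.09) and LHCB1.2 (-0.08) were nearer to WT. LHCB3 alone stood above it, at 3497 FPKM against 3096 FPKM (0.18). With 1 library a group these values have no replicate check.

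In the double mutant mom1pial2 the median was also -0.15, beside 0.00482 for all genes, and 8 genes were below and 2 above WT. LHCB4.1 was lowest, at 1091 FPKM against 1390 FPKM (-0.35), followed by LHCB6 at 1926 against 2327 FPKM (-0.27) and LHCB1.3 at 10619 against 12291 FPKM (-0.21). LHCB1.5 (-0.18), LHCB1.1 (-0.17), LHCA1 (-0.12), LHCB5 (-0.11) and LHCB1.2 (-0.08) came next. LHCB3 stood at 3680 FPKM against 3102 FPKM (0.25) and LHCB1.4 at 795 against 703 FPKM (0.18). The authors' deposited table called 0 of the 10, beside 1.98% of genes tested, with a lowest q-value of 0.784 and 0 p-values under 0.05.

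The pial2 and mom1pial2 tables share WT replicate 2 with that of mom1 replicate 2, so a high or low value in this WT library enters all 3. LHCB3 had its lowest level of the 8 libraries in WT replicate 2 and a positive ratio in all 3 tables (0.24 in mom1 replicate 2, 0.18 in pial2 and 0.25 in mom1pial2). LHCB1.4 had ratios of 0.28 in mom1 replicate 2, -0.48 in pial2 and 0.18 in mom1pial2. Summed root markers were 45 FPKM in pial2 and 75.1 FPKM in mom1pial2, against 112 FPKM in WT replicate 2, and seed markers 0.232 and 5.40 FPKM, against 13.8 FPKM. SESA3 was at 0 in pial2, and 0 of the 4 seed genes were at 0 in mom1pial2. Their part in the ratios of the light-harvesting genes was not tested.

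In the library labelled pial1/2 the 10 genes were split evenly around WT, with 5 above and 5 below and a median of -0.00179, beside -0.00398 for all genes. LHCB1.4 was highest, at 3170 FPKM against 2874 FPKM (0.14), and LHCB1.1 lowest, at 4433 against 4857 FPKM (-0.13). LHCB1.5 (0.10), LHCB1.3 (0.08), LHCB5 (0.08) and LHCB1.2 (0.02) stood above WT, and LHCB3 (-0.03), LHCA1 (-0.05), LHCB4.1 (-0.09) and LHCB6 (-0.09) below it. The authors' deposited table called 0 of the 10, beside 1.19% of genes tested, and 0 had a p-value under 0.05.

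In nrpe1 the median was -0.03, beside 0 for all genes, and LHCB1.1 was farthest from WT, at 4000 FPKM against 4881 FPKM (-0.29). LHCB1.2 was at 5639 against 6138 FPKM (-0.12), LHCB1.3 at -0.09 and LHCB1.5 at -0.06. The other 6 genes lay within -0.03 and 0.02 of WT on the log2 scale. The authors' deposited table called 0 of the 10, beside 1.87% of genes tested, and 0 had a p-value under 0.05. The nrpe1 and pial1/2 tables share WT replicate 1, as does that of mom1 replicate 1, in which LHCB1.1 was at -0.04 and LHCB1.2 at 0.10.

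The other genes of the photosynthetic membrane, taken from lists chosen by function, are given beside the shares of all genes, of which 35.0% were lower in the second set without overlap and 30.0% higher. Of 11 other light-harvesting genes 4 were lower in the second set without overlap, 3 higher, and 4 overlapped, with a median of -0.19. They ran from LHCA3 (-1.02) and LHCB2.3 (-0.55) to LHCB4.3 (0.88) and LHCA6 (1.17). LHCA6, which links photosystem I to the NDH complex, is a low-abundance relative at 183 FPKM in the second set and 80.6 in the first. Of 12 nuclear photosystem I subunit genes 8 were lower and 3 higher (median -0.49), from PSAE2 (-1.29) and PSAE1 (-0.98) to PSAK (0.29) and PSAD2 (0.84). Of 10 photosystem II genes 5 were lower and 4 higher (median -0.25), from PSBQ2 (-1.08) and PSBW (-0.94) to PSBQ1 (0.85) and PSBS (0.91), the sensor of energy-dependent quenching.

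Chlorophyll synthesis, on which these proteins depend for folding, had 7 of 14 genes lower and 2 higher without overlap (median -0.11), beside 35.0% and 30.0% of all genes, which holds for the next lists too. The protochlorophyllide reductase genes PORB and PORA were lowest, at -3.87 and -2.83, with PORB at 120 FPKM in the second set and 1744 in the first, while CAO, which makes chlorophyll b, was at 0.72 and GUN4, an activator of magnesium chelatase, at 2.27. Of 5 genes for import and insertion 3 were lower and 1 higher (median -0.24), with CPSRP54 at -0.66, LTD at -0.28, CPFTSY at -0.06 and CPSRP43, a chaperone of the light-harvesting proteins, at 1.2. Of 7 regulators and kinases 2 were lower and 5 higher (median 0.42). TAP38, the phosphatase that acts on LHCII, was at -0.88 and the bHLH factor PIF3 at -0.60, while GLK1, which activates light-harvesting genes, was at 1.67 and the light-signalling factor HY5 at 1.94. No difference between any of these lists and the 10 genes was tested.

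**Figure D4:**
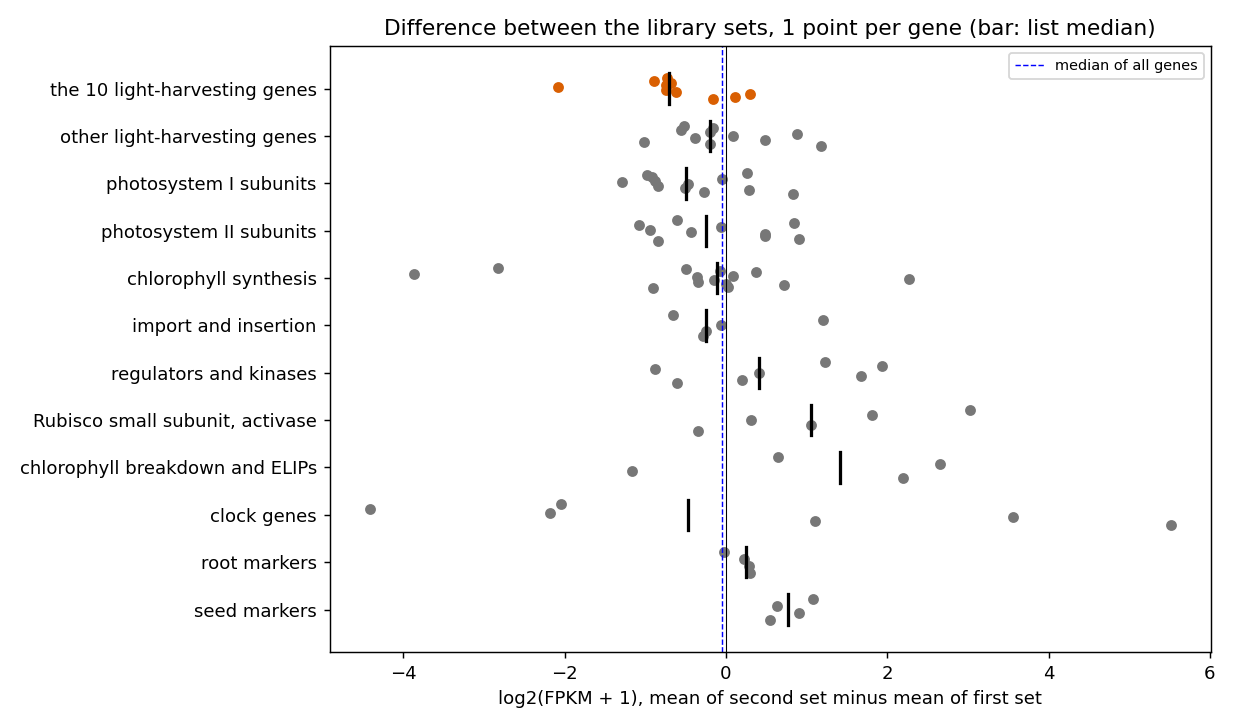
Difference between the library sets for each gene of 12 lists (rows), as mean log2(FPKM + 1) of the second set minus that of the first (points, 1 a gene; bars, list medians; dashed line, median of all genes at -0.05). The median of the 10 light-harvesting genes lies at -0.70, while the clock genes spread from -4.42 to 5.52.

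In the mutants few genes of these lists were called. By limma in mom1 0 genes of any list were called, beside 0.0877% of the 20536 genes tested. An unadjusted p under 0.05 was found for 1 chlorophyll, 1 clock and 1 root gene, and for 1253 of all genes tested. The limma medians were 0.10 for other light-harvesting genes, 0.08 for photosystem I, 0.05 for photosystem II, 0.12 for chlorophyll synthesis, 0.06 for import and insertion, 0.01 for regulators and 0.02 for clock genes. In the tables of mom1 replicate 2 and mom1 replicate 1 the medians were 0.15 and -0.00313 for photosystem I, 0.09 and -0.01 for photosystem II, 0.13 and 0.02 for import and insertion, -0.01 and 0.02 for regulators, and -0.07 and 0.15 for clock genes. Other light-harvesting genes were at 0.07 and 0.05 and chlorophyll synthesis at 0.13 and 0.15 in the same tables. The authors' deposited tables called GLK2, a partner of GLK1, lower in mom1pial2 (119 FPKM against 182 FPKM, q = 0.0316). Without a call, GLK2 was also below WT replicate 2 in mom1 replicate 2 (131 FPKM) and pial2 (150 FPKM). WT replicate 2 was its highest library of all, and a link to the light-harvesting genes was not tested. The authors called the clock genes PRR9 higher (0.80) and PRR5 lower (-0.64) in mom1 replicate 1. None of the other light-harvesting, photosystem, chlorophyll synthesis or import genes was called in any of the authors' deposited tables. Those tables called from 1.19% (the library labelled pial1/2) to 2.44% (pial2) of the genes they tested. Root markers had a limma median of -0.74 in mom1, from -1.65 in the replicate 2 table and 0.05 in the replicate 1 table. Seed markers had a limma median of -0.97, from -1.97 in the replicate 2 table, while none of the 4 reached 1 FPKM in the replicate 1 table. The authors' deposited tables called THAS, THAH and THAD lower in mom1 replicate 2, pial2 and mom1pial2, at log2 ratios between -1.96 and -0.72, and PRP3 lower in mom1 replicate 2 and pial2 (-0.70 and -0.56). They also called SESA2 and SESA3 lower in the same 3 libraries, and CRU3 in mom1 replicate 2 and pial2, against WT replicate 2.

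The 500 bases before each coding start, which can include annotated 5′ untranslated sequence, were searched on both strands for letters bound by known regulators of these genes. The CCA1-binding letters AAAAATCT or AACAATCT, bound by the morning clock factor CCA1, were present before 3 of the 10 genes (LHCB1.1, LHCB1.3 and LHCB1.4) and before 17.04% of all 27443 protein-coding genes. They are shown because CCA1 and LHY differed between the sets. The sites below are from RefSeq TAIR10.1, 5′ to 3′ on the strand of the gene, with the matching letters in capitals, at chr1:10476029-10476058 (minus strand), chr1:10477869-10477898 and chr1:10477887-10477916 (plus strand), and chr2:14524578-14524607 and chr2:14524606-14524635 (plus strand), in the order printed.
LHCB1.1: aacgataaaacAAAAATCTtaaaatccaat
LHCB1.3, upstream site: gtaagcaaacaAACAATCTaaaccccaaaa
LHCB1.3, downstream site: taaaccccaaaAAAAATCTatgactagcca
LHCB1.4, upstream site: aattccaaaccAAAAATCTgatgccagctc
LHCB1.4, downstream site: tcgacaagacaAAAAATCTaagctcaaaaa
The capitals end 147 bases before the coding start in LHCB1.1, 183 and 165 in LHCB1.3, and 221 and 193 in LHCB1.4. The 3 genes that hold them had set differences of 0.30, -0.62 and -2.08 on the log2 scale, and the part of these letters in them was not tested. The evening element AAAATATCT was found before 0 of the 10 genes and 4.016% of all genes.

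The G-box CACGTG, a core that HY5 and PIF factors bind, was found before LHCB4.1, LHCB6 and LHCA1 (3 of 10, and 9.336% of all genes). They are printed in the same way, at chr5:208780-208809 (plus strand), chr1:5447987-5448016 (minus strand) and chr3:20341085-20341114 (minus strand).
LHCB4.1: aagaccgcagtaCACGTGgcttcttctaac
LHCB6: taaattaatttcCACGTGtcattttatttt
LHCA1: atatcgagaagaCACGTGgcccaatgaaaa
The set differences of these genes were -0.89, -0.17 and -0.75. The letters GATAAG, an I-box core, stood before 6 of the 10 genes (23.53% of all genes) and CCAATC before 6 (21.19% of all genes). A match is a run of letters and not evidence of binding.

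Across the 8 libraries, the genes with the pattern most like the mean of the 9 complete members were AT4G16150 (Pearson r = 0.994), AT3G44430 (0.992), AT5G59250 (0.991), GATA5 (AT5G66320, a GATA-type transcription factor gene; 0.991) and AT4G08520 (0.990), out of 11710 genes with a mean of at least 10 FPKM. These values describe 8 libraries that fall into 2 sets, and the 5 genes stood at -0.63, -0.55, -0.53, -0.60 and -0.32 between the sets.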

How the data were processed

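Polyadenylated RNA of 8 seedling libraries was sequenced by Illumina. The submitters' processing notes name TopHat2 2.0.12, Bowtie, Cufflinks 2.2.1, Cuffdiff and the build TAIR10; read length, strand and filters are not given in the sources used here. Per the file headers, the authors deposited FPKM per gene for 1 mutant and 1 WT library a table, with Cuffdiff's p-value and q-value. The depth behind these values is unknown.

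Log2 ratios were taken within a table on FPKM plus a pseudocount of 1, and fold changes are on that scale, since each table was scaled to its own libraries (WT values differ by a factor of 0.995 to 1.02 between tables). A WT level is the mean of its 3 tables. Entries with a status for too many fragments or a failed test were left out, except that their WT values above 0 were kept in the WT levels. For mom1, limma 3.58.1 (R 4.3.3) tested the mean of the 2 within-table ratios, which pair libraries of the same number, against 0 with an empirical Bayes spread. The test was two-sided, with Benjamini-Hochberg adjustment over all 20536 genes that reached 1 FPKM in any of the 4 libraries and a limit of 0.05. Single-library mutants and the library sets have no test of their own. Calls by the authors are q-values under 0.05. In the set comparison genes needed at least 1 FPKM in 1 of the 8 libraries.

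Genes were matched by locus identifier to RefSeq TAIR10.1, where 95.9% of 26693 coding entries have their whole coding sequence inside the deposited interval. Coding sequences were aligned with mafft 7.526, and Python 3.11.15, numpy 2.4.6, pandas 2.3.3 and matplotlib 3.10.9 did the rest.

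The members and the lists (other light-harvesting genes, photosystem I, photosystem II, chlorophyll synthesis, import and insertion, regulators, Rubisco, chlorophyll breakdown, clock, root and seed) were chosen with earlier results of these data known. All 10 members are named. Of the lists, every gene called by the authors is named, although the plan was up to 3 a direction in each table. Between the sets, the 2 highest and 2 lowest of a list are named. The alternatives were another pseudocount, filter, centring, q-value limit, the fit without the replicate block and leaving out libraries.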

Additional observations from a re-analysis of the deposited data

Results flagged for a closer look

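LHCB1.4 in the library labelled pial1/2 stood apart from the other libraries of the first set. Its level there was 3170 FPKM, while the other 3 libraries lay between 2849 and 2883 FPKM, so the gap to the nearest library was 0.893 of the whole range, above the Dixon critical value of 0.829 for 4 values. The 4 libraries are of 4 genotypes and are not replicates of one another. In all, 19 groups of 4 libraries were looked at, and chance flags about 1 in 20 such groups.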

How the results depend on the processing

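The tables pair each mom1 library with the WT library of its number, in 2 pairs, and the labels give no other basis for this. All 133 plastid-genome genes were at 0 in both libraries of replicate 1, while 78 and 76 were above 0 in mom1 and WT of replicate 2. Over 20536 genes the deviations of mom1 replicate 1 and WT replicate 1 from their group means correlated at 0.833. Without the replicate block the mom1 median stayed at 0.13 and 0 of the 9 members were called (lowest limma adjusted p = 0.999965, against 0.814 with it). Over all genes limma called 18 with the block and 0 without it, 0 with no filter on low values and 30 with a filter of 5 FPKM. Of the 9 members 0 were called under pseudocounts of 0.1 and 5, either filter or centring, with lowest adjusted p between 0.784 and 0.836. The mom1 median ran from 0.07 without replicate 2 to 0.22 without replicate 1, a value with no test, and was 0.16 over the 5 members with no shared window (chosen after seeing the data). The median of the library labelled pial1/2 was -0.00179 and became 0.00220 with centring, both near 0, and those of nrpe1, pial2 and mom1pial2 moved by less than the spread of the mom1 medians. The authors' calls stayed at 0 members at q under 0.01 and with a fold minimum of 1.5. Leaving out each library, the set difference ran from -0.75 to -0.67, and it was -0.73 for the members with no shared window and -0.70 with the LHCB1 genes as a sum. The count of members below without overlap ran from 7 to 8 and of those above from 1 to 2, where 2 held without mom1 replicate 1 (both added after seeing the data). Such counts cannot fall when a library is left out, so they do not check the result. Among single members the set difference of LHCB3 was -0.86 between the WT libraries, and those of LHCB4.1, LHCB5 and LHCA1 were -0.63, -0.49 and -0.55 between the mom1 libraries. Unknown depth prevents counting intervals for any value.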

Other observations

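Of 5 carbon fixation genes, which encode Rubisco small subunits and Rubisco activase, 3 were higher in the second set without overlap and 1 lower (30.0% and 35.0% of all genes), with a median log2 difference of 1.05. RBCS1B, a small subunit gene, stood at 2717 FPKM in the second set and 329 FPKM in the first (3.03), RBCS2B at 1.81, RBCS3B at 0.31 and RBCS1A at -0.35. The small subunit genes are close copies, so their separate values are uncertain. In mom1 the 5 genes had a median of 0.02, from 0.13 in the replicate 2 table and -0.10 in the replicate 1 table. By limma 0 were called, beside 0.0877% of all genes tested. The authors' deposited table called RBCS1B lower in the library labelled pial1/2 (-0.38, q = 0.0238), beside 1.19% of genes tested.

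Of 4 genes for chlorophyll breakdown and early light-induced proteins, which are stress relatives of the antenna, 3 were higher in the second set without overlap and 1 lower (median 1.42; 30.0% and 35.0% of all genes). ELIP2 was at 2.65, ELIP1 at 2.19 and SGR1, which starts chlorophyll breakdown, at 0.64, while NYC1, a chlorophyll b reductase, was at -1.16. The authors' deposited table called ELIP2 higher in pial2, at 19.5 FPKM against 8.13 FPKM, beside 2.44% of genes tested. In mom1 the list had a median of 0.14, from 0.03 in the replicate 2 table and 0.18 in the replicate 1 table. By limma 0 of its genes were called, beside 0.0877% of all genes tested.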
